A study of Mus musculus with 6 samples.

Results

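The antiviral interferon-stimulated genes and interferon regulatory factors (Irf) were followed in 2 mouse lymphoma lines that received no treatment. Members were taken by the gene name printed on the array. The rule accepted names that begin with Ifi, Irf, Isg or Oas, together with Mx1, Mx2, Stat2, Usp18, Rsad2, Bst2, Zbp1, Ddx58, Rtp4, Eif2ak2, Adar, Samhd1 and Ly6e, and it passed over Irf1, Irf4 and Ifi47. It found 56 gene names on 88 probes, out of 27962 gene names on the array. Xaf1 and Dhx58, also listed by the rule, were not among the names. Where a gene had several probes, the one brightest on average over the 6 arrays stood for it. S49 Neo is the parental line, and MR 4-25 is a line recovered from mannitol, a sugar alcohol that raises the osmotic pressure of the medium. S49 is known as a mouse T cell lymphoma line that grows in suspension. Both lines were kept in the same serum-supplemented medium with antibiotics, and total RNA of 3 samples per line was labelled with the dye Cy3 and hybridised to 1 array each. Each side of the comparison is thus a single line. Whether the 3 samples of a line were grown separately is not stated, so every p-value here reflects how far these particular samples varied, and that variation may be purely technical.

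Interferons are secreted proteins that cells release when they sense viral nucleic acid. Type I interferons bind the receptor pair Ifnar1 and Ifnar2, and the kinases Jak1 and Tyk2 then activate Stat2, which joins Irf9 in a transcription factor complex. That complex binds interferon-stimulated response elements in the promoters of target genes, whereas interferon gamma acts mainly through gamma activated sites. The target genes encode proteins that block viral entry, translation and replication, sense further nucleic acid or restrain the response. Irf3 and Irf7 drive interferon genes themselves, and Irf8 is known mainly for its role in myeloid and B cell development.

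Promoter windows of 43 of the 56 genes were available from RefSeq on build GRCm38.p6, each reaching from 250 bases before the annotated start to 50 bases after it, so 300 bases in all. The windows of 4 genes are printed up to the start, 5′ to 3′ on the strand of the gene, because they show the range found: 3 overlapping matches to the response element in the gene with the lowest adjusted p, 2 separate matches in Ifit1, 1 match in Rsad2 and none in Ifi44, which was above background in MR 4-25 alone. Capitals mark matches to the core of the response element, GAAA, any 2 bases and GAAA again, or to its reverse complement, TTTC, any 2 bases and TTTC.
Isg15, chr4:156200819-156201068, minus strand: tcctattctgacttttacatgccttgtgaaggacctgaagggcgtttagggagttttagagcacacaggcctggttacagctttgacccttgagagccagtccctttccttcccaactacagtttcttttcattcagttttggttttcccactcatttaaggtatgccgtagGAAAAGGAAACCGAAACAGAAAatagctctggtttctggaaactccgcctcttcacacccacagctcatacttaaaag
Ifit1, chr19:34640639-34640888, plus strand: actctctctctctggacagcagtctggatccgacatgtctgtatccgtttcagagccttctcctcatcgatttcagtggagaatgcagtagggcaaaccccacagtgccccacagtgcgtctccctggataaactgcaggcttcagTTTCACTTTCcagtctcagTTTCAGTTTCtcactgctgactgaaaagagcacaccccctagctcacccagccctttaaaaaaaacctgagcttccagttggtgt
Rsad2, chr12:26456453-26456702, minus strand: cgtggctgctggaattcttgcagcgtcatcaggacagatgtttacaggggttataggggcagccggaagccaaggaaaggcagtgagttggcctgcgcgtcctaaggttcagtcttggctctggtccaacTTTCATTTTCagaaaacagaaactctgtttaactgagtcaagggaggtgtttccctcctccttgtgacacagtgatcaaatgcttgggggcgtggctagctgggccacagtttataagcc
Ifi44, chr3:151749911-151750160, minus strand: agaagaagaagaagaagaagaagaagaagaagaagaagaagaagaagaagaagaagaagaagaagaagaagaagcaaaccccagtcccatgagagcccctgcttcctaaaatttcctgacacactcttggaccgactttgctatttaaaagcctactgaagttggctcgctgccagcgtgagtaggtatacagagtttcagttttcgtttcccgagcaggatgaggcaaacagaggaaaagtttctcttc
In Isg15 the overlapping matches ended between 69 and 57 bases before the start. The pair in Ifit1 ended 95 and 76 bases before it, and the match in Rsad2 ended 111 bases before it. Over the whole 300-base windows and both strands, the response element letters were found in 18 of 43 members, or 41.9%, and in 3.99% of the 27025 genes of the table. The gamma activated site TTCNNNGAA was found in 14 members, or 32.6%, and in 9.55% of all genes. Among the 41 tested members with a window, the 17 holding the response element had a median log2 difference between the lines of 0.32 and the 24 without it one of 0.24. A match is a run of letters, not a measured binding site, and no match says only that these letters are not in that window.

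Signals are given as log2 of the background-corrected intensity relative to the array's own 75th percentile, so that 0 is the 75th percentile of that array. Each difference is MR 4-25 minus Neo on this scale. The 75th percentile lay between 844 and 988 intensity units on 5 arrays and at 521 on MR 4-25 3, where 61.3% of probes were well above background against 69.9% to 76.3% elsewhere. Neo 1, Neo 2, MR 4-25 1 and MR 4-25 2 shared slide 1, and Neo 3 and MR 4-25 3 shared slide 2. The 8 T cell markers were well above background on all 6 arrays, and their summed signal was 228 to 270 times the 75th percentile in Neo and 222 to 246 times in MR 4-25. The brightest markers carried this sum, with Thy1 at means of 7.06 and 6.96, while Cd4, Cd5 and Cd8a had means below 0 in both lines. Lck and Cd3e were lower on every MR 4-25 array, by 0.51 and 0.28, and did not pass the test. These 2 are 25% of the T cell markers, beside 13.2% of all genes tested. For 5 B cell markers the sum was 0.656 to 0.785 in Neo and 0.698 to 1.04 in MR 4-25, and for 4 NK cell markers, of which Klrk1 was not well above background on any array, 0.0969 to 0.3 and 0.113 to 0.292. For 3 fibroblast markers it was 0.42 to 0.93 and 0.585 to 1.02, and for 3 erythroid markers 0.367 to 1.44 and 0.813 to 1.55.

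Of the 56 members, 53 were well above background on at least 3 arrays and were tested, 45 of them on all 6 arrays. Isg15, Rtp4 and Ifi44 were higher in MR 4-25, none was lower, and the other 50 did not pass a limma adjusted p of 0.05. The 3 genes are 5.66% of the tested members, beside 0.665% of all 21503 genes tested called higher and 0.539% called lower. Ifi44 passed the filter on low signals only through the line in which it was high, so it had to differ. The median difference was 0.27 over the tested members and 0.01 over all genes tested. On slide 1 these medians were 0.21 and -0.02, and on slide 2 they were 0.39 and 0.09. The difference was above 0 for 36 of 53 members, or 67.9%, beside 50.5% of all genes tested. All 3 MR 4-25 arrays lay above all 3 Neo arrays for 16 members, or 30.2%, beside 11.2% of all genes tested, and below them for 3 members, or 5.66%, beside 13.2%. At an unadjusted p of 0.05, 15 members, or 28.3%, passed, beside 13.2% of all genes tested. Of these, 13 were higher and 2 lower in MR 4-25, beside 5.88% and 7.34% of all genes tested. These shares describe the lists and were not tested against each other. RNA came from whole cultures, so fewer cells making a transcript and less transcript per cell cannot be told apart.

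**Figure D1:**
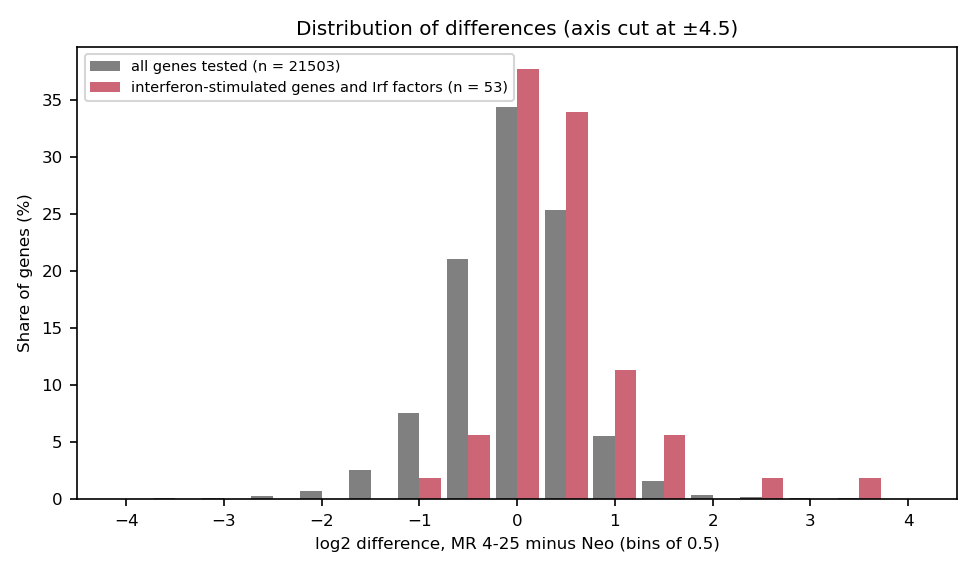
Share of genes (vertical axis, percent) by log2 difference, MR 4-25 minus Neo (horizontal axis, bins of 0.5), for the 53 tested interferon-stimulated genes and Irf factors (red) and all 21503 genes tested (grey). The red bars lie further right, with a median of 0.27 against 0.01, and the rightmost is Ifi44, whose Neo signals were not well above background, so that its place is not a measured size.

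Isg15 encodes a ubiquitin-like protein that is joined to other proteins during the interferon response. Its signal was 0.26, 0.34 and 0.24 in Neo 1 to 3, and 2.05, 1.70 and 2.14 in MR 4-25 1 to 3. The Neo arrays were nearly level, and every MR 4-25 array stood well above them. Isg15 was 3.22-fold higher in MR 4-25, a log2 difference of 1.69 with a standard error of 0.18, a 95% interval of 1.24 to 2.13 and a limma adjusted p of 0.0241. The difference was 1.58 on slide 1 and 1.90 on slide 2, and with slide as a block the adjusted p was 0.0318. With the replicate number as a block the adjusted p was 0.14, on slide 1 alone 0.0924 and with normexp background correction 0.0781. Leaving out 1 array gave adjusted p-values of 0.155, 0.157 and 0.132 without Neo 1, 2 or 3, of 0.13 and 0.0732 without MR 4-25 1 or 2, and of 0.0422 without MR 4-25 3. The array annotation puts this probe on chromosome 17, at 44534906 to 44534965 of build mm7, while RefSeq lists the gene on chromosome 4. The transcript accession of the probe is one that RefSeq assigns to Isg15. Usp18, the protease that removes Isg15 from its targets and damps receptor signalling, had a difference of -0.21 with a standard error of 0.27 and an adjusted p of 0.806, and its lines overlapped.

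Rtp4 encodes a receptor transporter protein that is induced by interferon. Its signal was -2.36, -2.33 and -3.17 in Neo and -0.02, -0.14 and -0.19 in MR 4-25. The MR 4-25 arrays were close together, Neo 3 was the lowest of all, and the lines did not overlap. Rtp4 was 5.67-fold higher in MR 4-25, with a log2 difference of 2.50, a standard error of 0.28, a 95% interval of 1.81 to 3.20 and an adjusted p of 0.0272. Within slides the difference was 2.26 and 2.98, and the adjusted p was 0.0194 with slide as a block, 0.0416 on slide 1 alone and 0.113 with a replicate block. Without Neo 1, 2 or 3 it was 0.12, 0.133 and 0.0545, and without MR 4-25 1, 2 or 3 it was 0.148, 0.135 and 0.0706. The probe lies on chromosome 16 at 23271913 to 23271972 of mm7.

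Ifi44 encodes a protein induced by interferon with reported antiviral activity. Its signal was -7.34, -6.76 and -7.58 in Neo, not well above background on any array, and -2.83, -4.06 and -3.82 in MR 4-25, well above background on all 3. The lowest MR 4-25 array thus stood above every Neo array. In the processing as reported, Ifi44 was at least 7.79-fold higher in MR 4-25, counted from the lowest signal that was well above background on each Neo array. That lowest signal is not a detection limit, and no exact difference is given against these Neo signals. With normexp correction the log2 difference was 1.69, which is below that bound, so the bound depends on the processing. The adjusted p of the limma fit was 0.0274, with 0.0321 for slide as a block, 0.126 on slide 1 alone, 0.14 with a replicate block and 0.448 with normexp correction. Without Neo 1, 2 or 3 the adjusted p was 0.155, 0.126 and 0.134, and without MR 4-25 1, 2 or 3 it was 0.0779, 0.0983 and 0.0699. The probe lies on chromosome 3 at 151631285 to 151631344 of mm7. A second Ifi44 probe was not well above background on any of the 6 arrays.

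**Figure D2:**
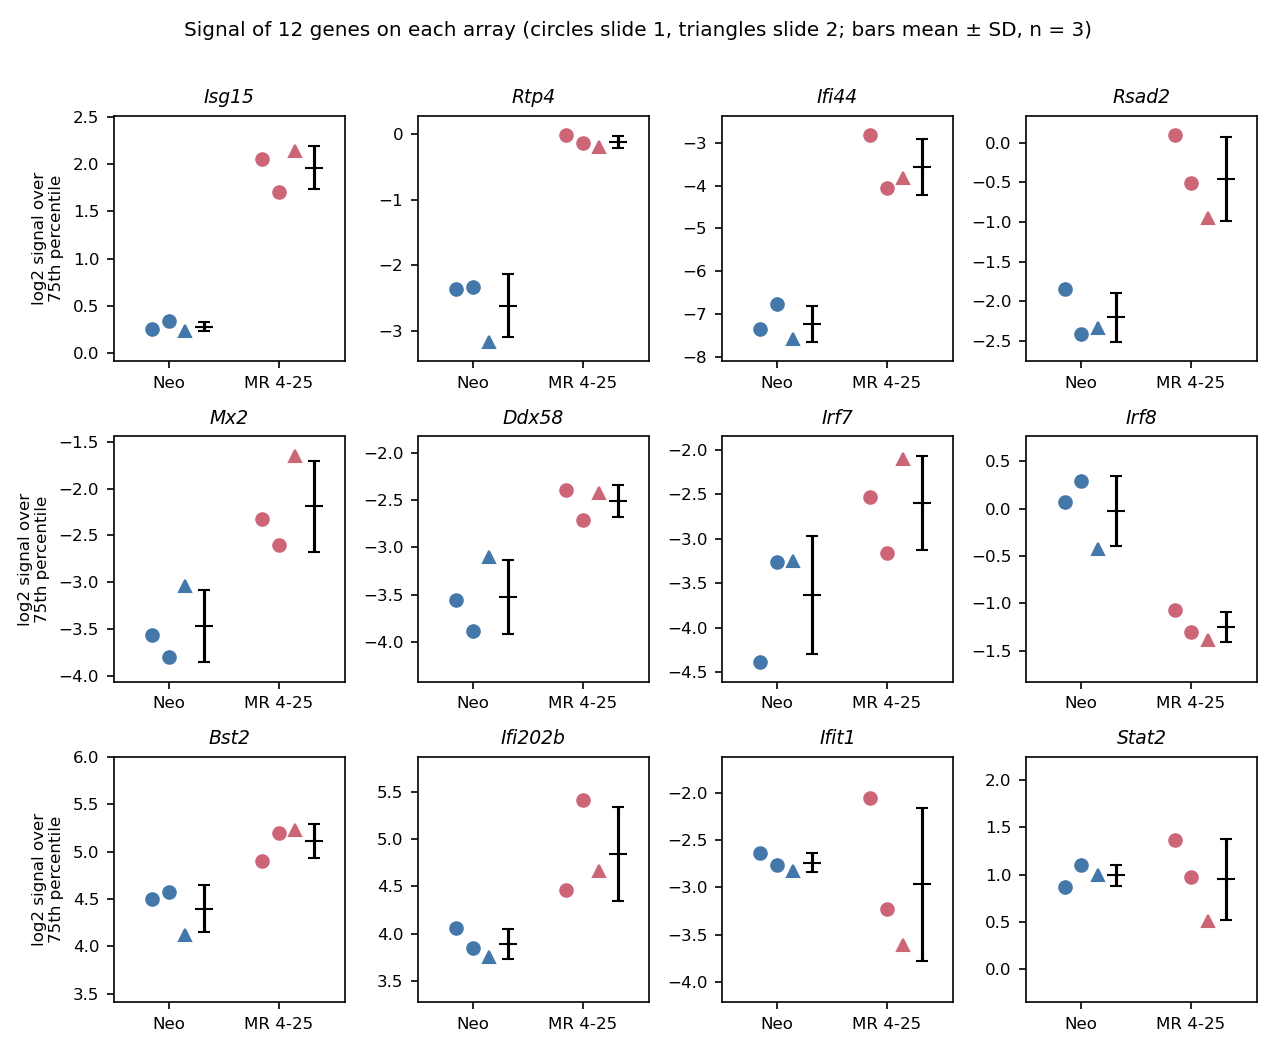
Signal of 12 members on each array, as log2 over the 75th percentile of the array (vertical axis, a separate scale in each panel). Neo is blue and MR 4-25 red, circles are slide 1 and triangles slide 2, and bars show mean ± SD over n = 3 arrays. The lines are apart for Isg15, Rtp4, Ifi44, Rsad2, Mx2, Ddx58, Irf7, Bst2 and Ifi202b, reversed for Irf8, and overlapping for Ifit1 and Stat2.

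A further 4 members had a log2 difference of 1 or more with no overlap between the lines and did not pass the test. With the 3 that passed and Irf8 they make 8 members, or 15.1% of those tested, beside 5.2% of all genes tested. Ifi44 is among the 8, although it passed the filter only through MR 4-25 and so had to differ. Rsad2, or viperin, makes a nucleotide that stops viral RNA synthesis. It measured -1.84, -2.41 and -2.34 in Neo and 0.09, -0.51 and -0.95 in MR 4-25, so the nearest arrays of the lines were still clearly apart. The difference was 1.74 with a standard error of 0.33 and an adjusted p of 0.109. Over its 19 alternatives the adjusted p ran from 0.049 to 0.406 and passed in 1, the test of only those genes well above background on all 6 arrays, and with a replicate block it was 0.14. The other probes of Rsad2 gave differences of 0.26 and 0.83, with standard errors of 0.51 and 0.46, so the size depended on the probe. Mx2, a dynamin-like GTPase that blocks viral replication, measured -3.57, -3.80 and -3.04 in Neo and -2.33, -2.60 and -1.65 in MR 4-25. In both lines the slide 2 array was the highest, and the difference of 1.28 with a standard error of 0.34 had an adjusted p of 0.203. Over its 19 alternatives the adjusted p ran from 0.0473 to 0.595 and passed in 1, with slide as a block, while with a replicate block it was 0.15. Mx1, its close relative, gave -0.02 with a 95% interval of -1.05 to 1.01. Its signal was low, at means of -5.51 in Neo and -5.53 in MR 4-25. It was well above background on 3 Neo arrays and 1 MR 4-25 array. A second Mx1 probe gave 0.35 with a standard error of 1.29. Ddx58 and Irf7 are described below with the sensors and the Irf factors.

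The Irf factors and their partners showed no common direction, with a median difference of -0.02 over 9 tested genes, 4 above 0 and 5 below. None of the 9 passed, and 2, or 22.2%, had an unadjusted p under 0.05, beside 13.2% of all genes tested. Irf7, the main driver of interferon alpha genes, measured -4.39, -3.26 and -3.25 in Neo and -2.53, -3.16 and -2.10 in MR 4-25. The lines did not overlap, but MR 4-25 2 lay close to the upper Neo arrays. The difference was 1.03 with a standard error of 0.44, a 95% interval of -0.08 to 2.15 and an adjusted p of 0.415. Irf3, which responds directly to the sensing of viral nucleic acid, measured 3.73, 3.87 and 3.49 in Neo and 3.12, 3.31 and 3.38 in MR 4-25, a difference of -0.43 with an adjusted p of 0.391. The arrays of MR 4-25 were all lower, though by a small step. Its second probe, on another transcript accession, gave -0.08.

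Irf8 had the lowest difference of any tested member. It measured 0.07, 0.29 and -0.43 in Neo and -1.07, -1.30 and -1.39 in MR 4-25. Every MR 4-25 array was below every Neo array. The difference of -1.23, or 2.34-fold lower in MR 4-25, had a standard error of 0.24, a 95% interval of -1.83 to -0.62 and an adjusted p of 0.115. A second Irf8 probe gave -0.42 with a standard error of 0.70, and on it both slide 2 arrays, at -2.64 in Neo and -3.07 in MR 4-25, were lower than the slide 1 arrays.

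Irf9, printed on the array as Isgf3g, is the DNA-binding partner of Stat2. It measured -1.34, -1.39 and -0.74 in Neo and -0.86, -1.01 and -0.77 in MR 4-25. Neo 3 was as high as the MR 4-25 arrays, and the difference of 0.28 had an adjusted p of 0.693. Stat2 measured 0.87, 1.10 and 0.99 in Neo and 1.36, 0.97 and 0.51 in MR 4-25. The MR 4-25 arrays lay on both sides of the Neo arrays, and the difference was -0.04 with a 95% interval of -0.68 to 0.61.

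Irf2, a factor that mostly represses interferon target genes, measured -1.07, -0.91 and -0.88 in Neo and -0.74, -0.59 and -1.65 in MR 4-25. The dim array MR 4-25 3 was the lowest and the other MR 4-25 arrays were above all Neo arrays, so the difference of -0.04 was -0.78 on slide 2 and 0.33 on slide 1. Irf5, which acts downstream of Toll-like receptors, measured -3.48, -3.27 and -6.34 in Neo and -3.45, -3.80 and -5.97 in MR 4-25. Both slide 2 arrays were low, and the difference of -0.04 had a wide 95% interval of -2.83 to 2.75. Irf2bp2, a corepressor that binds Irf2, had a difference of 0.37 with no overlap and an adjusted p of 0.362, and its relative Irf2bp1 had -0.02.

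All 7 sensors were tested and had a difference above 0, with a median of 0.70, beside 50.5% of all genes tested above 0 and a median of 0.01. In 5 of them, or 71.4%, every MR 4-25 array was above every Neo array, beside 11.2% of all genes tested. An unadjusted p of 0.05 was passed by 5, or 71.4%, beside 13.2% of all genes tested, and by none after adjustment. Ifi202b, Ifi203, Ifi204 and Ifi205 were put in this group as a family of neighbouring genes on chromosome 1. Whether each of these genes acts as a sensor was not tested. Ddx58, or RIG-I, senses viral RNA ends. It measured -3.56, -3.88 and -3.10 in Neo and -2.39, -2.71 and -2.43 in MR 4-25. All MR 4-25 arrays were higher, and the difference was 1.01 with a standard error of 0.25 and an adjusted p of 0.182. Of its other probes, the 2 that passed the filter gave 0.96 and 1.12, close to the first. Ifih1, or MDA5, senses long double-stranded RNA and measured -4.74, -4.85 and -4.81 in Neo and -4.74, -4.17 and -3.49 in MR 4-25. MR 4-25 1 was level with Neo, and the difference of 0.67 had an adjusted p of 0.501. Zbp1, a sensor of Z-form nucleic acid, measured -1.79, -1.55 and -1.50 in Neo and -0.88, -1.02 and -1.12 in MR 4-25, with no overlap, a difference of 0.61 and an adjusted p of 0.205.

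The Ifi200 family encodes proteins that bind DNA in the nucleus and cytoplasm, and its 4 members lie together on chromosome 1. Ifi202b measured 4.06, 3.85 and 3.75 in Neo and 4.46, 5.41 and 4.66 in MR 4-25. The MR 4-25 arrays were all higher and more spread, and the difference of 0.95 had a standard error of 0.29 and an adjusted p of 0.256. Ifi204 measured 2.31, 2.22 and 2.24 in Neo and 2.65, 3.42 and 3.08 in MR 4-25, a difference of 0.79 with an adjusted p of 0.24. Its other probes gave 1.07 and 0.54, also above 0. Ifi205 measured 1.04, 0.87 and 0.76 in Neo and 1.30, 1.78 and 1.69 in MR 4-25, a difference of 0.70 with an adjusted p of 0.223. In all 3 genes MR 4-25 2 was the highest array and MR 4-25 1 the lowest of its line. Ifi203 overlapped between the lines, with a difference of 0.32 on its brightest probe and of -0.74 and -0.54 on its others. Members of this family are similar in sequence. No probes of different members had 40 or more identical bases when laid against each other without gaps. Probes were not compared with the transcripts of other members, so binding of a probe to another member's transcript was not tested.

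**Figure D3:**
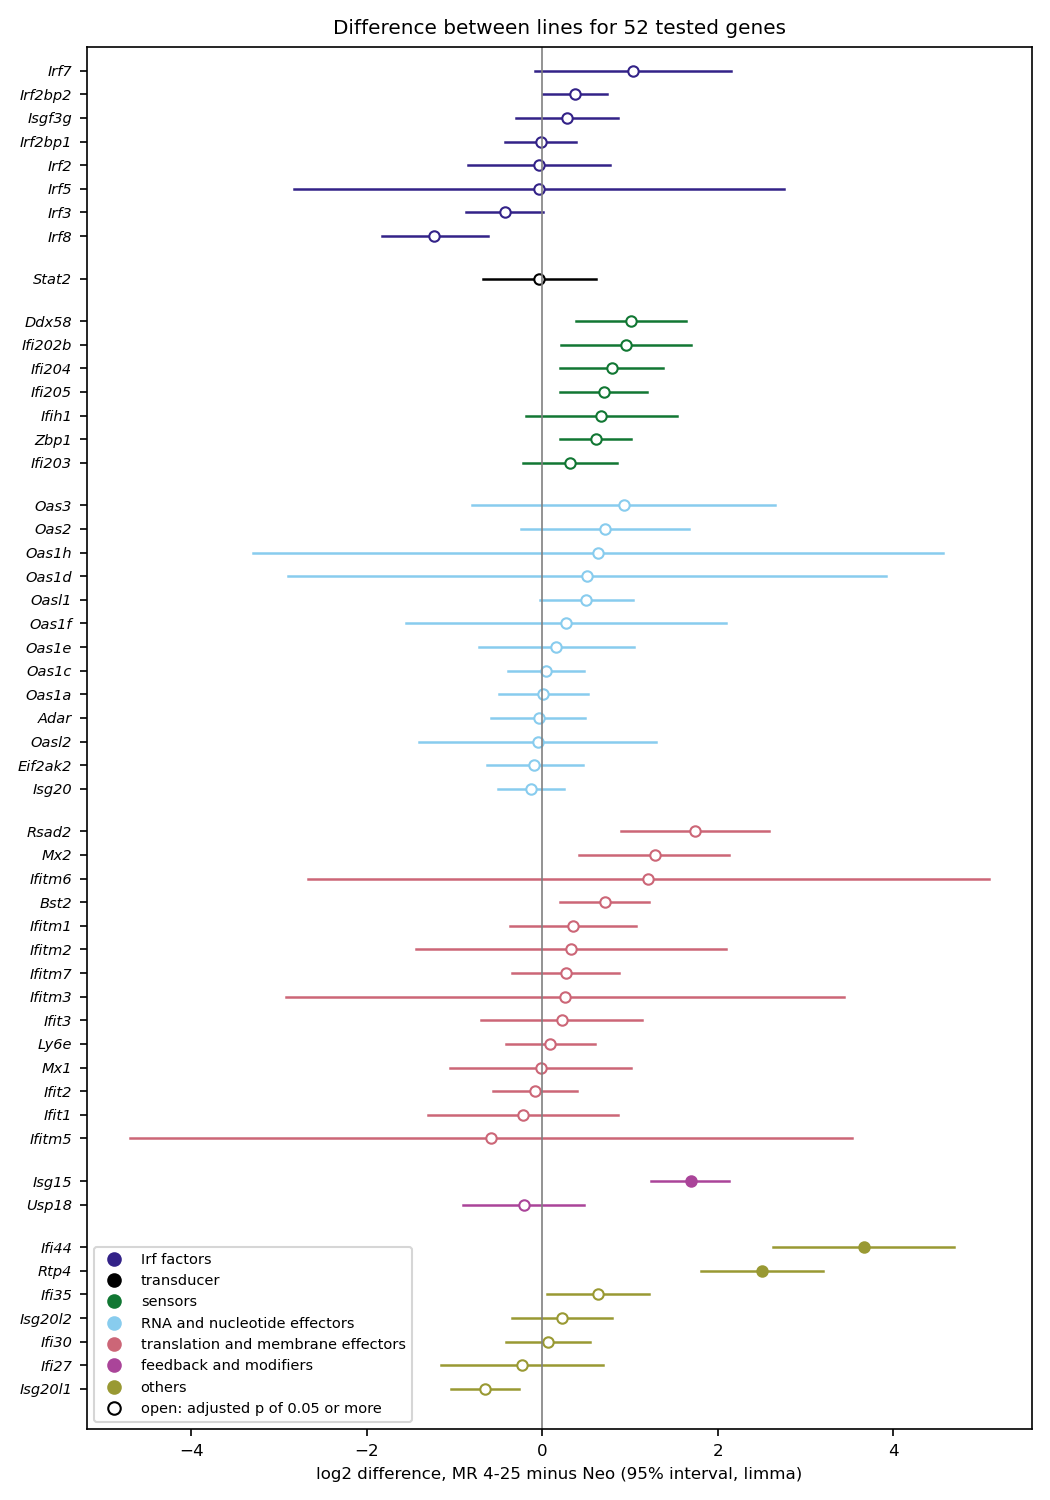
Log2 difference, MR 4-25 minus Neo (horizontal axis), with its 95% interval from limma for 52 tested members, grouped by role (colours) and ordered by size within a role. Filled points passed an adjusted p of 0.05, namely Isg15, Rtp4 and Ifi44, and open points did not. The Neo signals of Ifi44 were not well above background, so its point and interval are not a measured size. All 7 sensors lie right of 0, and Irf8 is furthest left at -1.23.

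Of the 16 effectors that cut, edit or otherwise act on RNA and nucleotides, 13 were tested. Their median difference was 0.16, none passed the test and none passed an unadjusted p of 0.05. The Oas enzymes make 2′-5′-linked oligoadenylates, which set off the breakdown of RNA. Tested Oas and Oasl genes ranged from -0.05 for Oasl2 to 0.93 for Oas3. Oas2 measured -5.42, -5.47 and -5.38 in Neo and -5.06, -5.19 and -3.90 in MR 4-25, and Oasl1 measured 0.22, -0.24 and 0.02 in Neo and 0.76, 0.38 and 0.35 in MR 4-25. Both were without overlap, with differences of 0.71 and 0.50 and limma adjusted p-values of 0.527 and 0.4. They were the only 2 of the 13 tested, or 15.4%, beside 11.2% of all genes tested. The difference of Oas2 was 0.32 on slide 1 and 1.48 on slide 2. Oas1a and Oas1c were nearly level, at 0.01 with a 95% interval of -0.49 to 0.52 and at 0.04 with one of -0.39 to 0.48.

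Eif2ak2, or PKR, the kinase that stops translation on sensing double-stranded RNA, had a difference of -0.09 with an interval of -0.63 to 0.46. The exonuclease Isg20 had -0.13 with an interval of -0.50 to 0.25. Adar, which edits adenosine to inosine in double-stranded RNA, measured 0.40, 0.28 and 0.34 in Neo and 0.58, 0.37 and -0.07 in MR 4-25. MR 4-25 3 was the lowest and MR 4-25 1 the highest, and the difference was -0.04. A second Adar probe, on another accession, measured -0.69, -0.77 and -0.67 in Neo and -0.31, -0.22 and -0.02 in MR 4-25, without overlap and with a difference of 0.53 and an adjusted p over all probes of 0.215, so the probes differed in sign. The other 3 genes of this group were not tested. Oas1g measured -8.13, -8.12 and -8.42 in Neo, Samhd1 measured the same on those arrays, and the MR 4-25 arrays lay at -7.34, -7.90 and -6.39 for Oas1g and at -6.99, -7.51 and -6.97 for Samhd1. Neither was well above background on any array, so these values have no order and no fold is given. Oas1b was well above background on 1 array.

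Among the 14 effectors that act on translation or at membranes, the median difference was 0.26 and none passed. An unadjusted p under 0.05 was found for 3, or 21.4%, beside 13.2% of all genes tested. No overlap with MR 4-25 higher was found for 3, or 21.4%, beside 11.2% of all genes tested, namely Rsad2 and Mx2, given above, and Bst2. Bst2, or tetherin, holds budding virus at the cell surface. It measured 4.50, 4.58 and 4.12 in Neo and 4.90, 5.20 and 5.23 in MR 4-25. Neo 3 was the lowest array, and the difference of 0.71 had a standard error of 0.20 and an adjusted p of 0.228. Its promoter window held 2 matches to the response element. The Ifit genes encode proteins that bind viral RNA lacking host cap marks. Ifit1 measured -2.64, -2.76 and -2.83 in Neo and -2.06, -3.23 and -3.61 in MR 4-25. MR 4-25 1 was the highest and the other MR 4-25 arrays the lowest, and the difference was -0.22 with an interval of -1.30 to 0.86. Ifit2 had -0.08 with an interval of -0.56 to 0.39, and Ifit3 had 0.22 with one of -0.70 to 1.14. Ly6e, a surface protein that blocks the entry of coronaviruses, had 0.09 with an interval of -0.41 to 0.60.

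The Ifitm proteins sit in membranes and hinder viral fusion, and several of their probes were scattered within a line. Ifitm3 measured -0.52, 3.31 and 2.51 in Neo and 2.91, 2.86 and 0.31 in MR 4-25. Neo 1 and MR 4-25 3 were the low arrays, and the difference of 0.26 had an interval of -2.92 to 3.44. Ifitm6 measured -2.56, -2.60 and -7.45 in Neo and -1.99, -2.64 and -4.35 in MR 4-25, low on slide 2 in both lines. Ifitm5 measured -5.01, -1.77 and -2.19 in Neo and -5.18, -5.12 and -0.41 in MR 4-25, with no order by line or slide. Ifitm1 and Ifitm7 were steadier, with differences of 0.35 and 0.27 and adjusted p-values of 0.69 and 0.708. Over all roles, 9 of the 53 tested members, or 17%, had an SD above 1 within a line, beside 32.3% of all genes tested. The 9 were Ifitm2, Ifitm3, Ifitm5, Ifitm6, Irf5, Oas1d, Oas1f, Oas1h and Oas3. Their differences are too imprecise to tell 0 from 0.70, the median over the sensors, none of which passed the test.

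Of the remaining 7 members, Rtp4 and Ifi44 rose, as given above. Ifi35, which pairs with the interferon-induced protein Nmi, measured 1.18, 1.23 and 1.18 in Neo and 1.65, 1.58 and 2.27 in MR 4-25. MR 4-25 3 was the highest, the lines did not overlap, and the difference of 0.64 had an adjusted p of 0.336. Isg20l1, the older name of the p53-induced nuclease Aen, measured 4.63, 4.89 and 4.61 in Neo and 4.00, 4.12 and 4.06 in MR 4-25. All MR 4-25 arrays were lower, and the difference of -0.65 had a standard error of 0.16, a 95% interval of -1.04 to -0.26 and an adjusted p of 0.169. Its other probes gave -0.75 and -0.67. The array annotation puts its brightest probe on chromosome 4, whereas RefSeq lists Aen on chromosome 7. Ifi30, a thiol reductase of antigen processing, had 0.06 with an interval of -0.41 to 0.54, and the nuclease Isg20l2 had 0.22 with an adjusted p of 0.736. The gene printed as Ifi27, now named Ifi27l2a, had -0.23 with an adjusted p of 0.852.

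**Figure D4:**
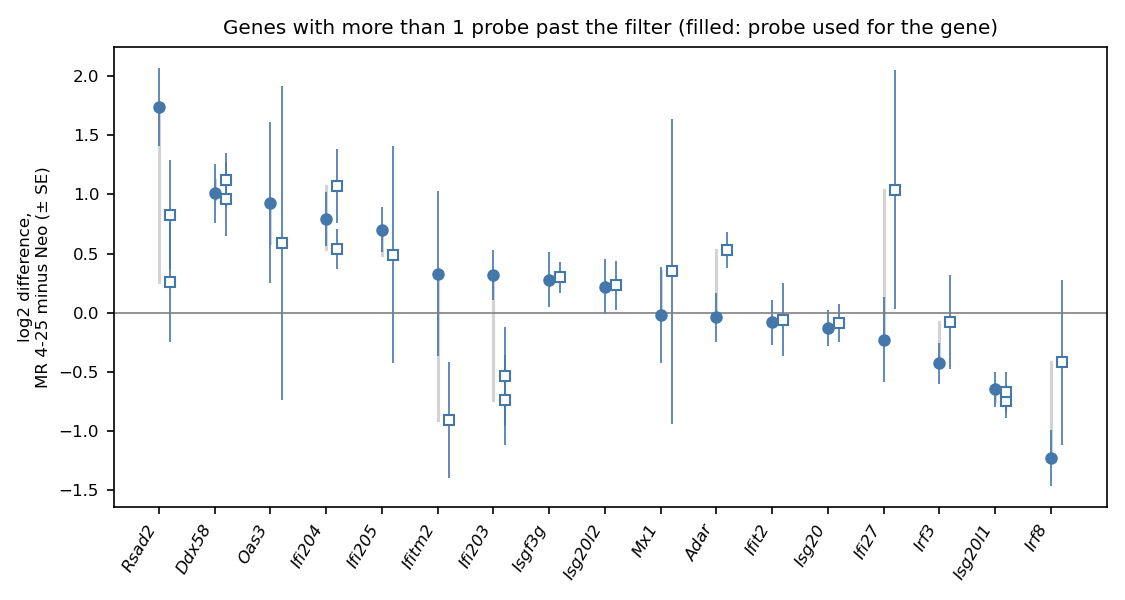
Log2 difference, MR 4-25 minus Neo (vertical axis, ± SE), for each of 39 probes past the filter on 17 members with more than 1 such probe. Filled circles are the brightest probe, which stands for the gene, and open squares the others. Probes had the same sign in 12 genes and opposite signs in 5, and the widest range was in Rsad2, from 0.26 to 1.74.

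The probes of a gene did not always give the same value. In 12 of the 17 members shown with more than 1 probe past the filter the differences had the same sign, and in Adar, Ifi203, Ifi27, Ifitm2 and Mx1 they did not. The range over probes was narrow for Ddx58, at 0.96 to 1.12, for Isg20l1, at -0.75 to -0.65, and for Irf9, at 0.28 to 0.30. It was wide for Rsad2, at 0.26 to 1.74.

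Other genes of the interferon pathway, were read from a list that excludes the members. Of 74 listed genes 67 were on the array and 59 were tested, with 3 higher, 2 lower and a median difference of 0.33. Over all genes tested 0.665% were higher and 0.539% lower, with a median of 0.01, beside 5.08% higher on the list. The genes that rose were Ifng, which encodes interferon gamma, at 4.05 with an adjusted p of 0.0294, Gbp2, an interferon-induced GTPase, at 2.08 with one of 0.0162, and Tap1, a peptide transporter subunit, at 1.13 with one of 0.0392. Those that fell were the phosphatase Ptpn6, at -1.73 with an adjusted p of 0.0199, and the nuclear body protein Sp110, at -1.45 with one of 0.0329. With the replicate number as a block none of the 59 passed in limma. Leaving out any of Neo 1, 2 and 3 or MR 4-25 1 and 2 also left none, and without MR 4-25 3 there were 2 higher and 2 lower. Of the type I interferon genes tested none passed, and Ifnb1 was well above background on 2 arrays, both of MR 4-25, and was not tested. All 3 MR 4-25 arrays lay above all 3 Neo arrays for 22 of the 59, or 37.3%, beside 11.2% of all genes tested. They lay below for 8, or 13.6%, beside 13.2%. Among the 5 receptor genes tested, 4, or 80%, were higher without overlap. The type I receptor chains Ifnar1 and Ifnar2 were 2 of these, with differences of 0.71 and 0.38 and limma adjusted p-values of 0.192 and 0.42. The kinases showed no common direction. Jak1 had -0.26 and was lower on every MR 4-25 array, with a limma adjusted p of 0.583. Tyk2 had 0.12, overlapped between the lines and had an adjusted p of 0.867. Jak2 had 0.85 with an adjusted p of 0.234. The chemokine gene Cxcl10 had an adjusted p of 0.131 and was well above background on only 1 Neo and 2 MR 4-25 arrays, so no size is given. The DNA-sensing adaptor Sting1 had -0.94 with one of 0.149. Irf1, Irf4 and Ifi47, which the rule for members passed over, had 0.98, -0.43 and 0.15 and did not pass.

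Several interferon-stimulated genes are also made at high levels by myeloid cells, so markers of that lineage were read on the same arrays. Their summed signal was 2.02 to 2.21 times the 75th percentile on Neo arrays and 3.06 to 3.97 times on MR 4-25 arrays. None of the 7 markers passed the test. Lyz2, Fcgr3 and Cd68 were higher on every MR 4-25 array, by 1.06, 0.93 and 0.75, with limma adjusted p-values of 0.0556, 0.259 and 0.282. These 3 are 42.9% of the myeloid markers, beside 11.2% of all genes tested. Fcgr3 and Lyz2 were the brightest of the list, at means of -0.14 and -1.26 in Neo and 0.79 and -0.20 in MR 4-25. Csf1r, Adgre1, Itgam and Cd14 overlapped between the lines. All 7 were well above background on at least 5 arrays. Irf8, a factor of myeloid and B cells, is not on this marker list. Its brightest probe was lower on every MR 4-25 array, and its second probe overlapped between the lines. The part of other cells in the differences of Isg15, Rtp4 and Ifi44 was not tested.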

How the data were processed

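Per the file headers, the authors deposited the output of Agilent Feature Extraction 9.5.3.1 (9.5 per the submitters' processing notes), in which the processed Cy3 signal is a background-subtracted, detrended intensity with no scaling between arrays. A deposited value list held the same intensity values. Control spots, 1639 per array, were dropped and 43379 spots for 41174 gene probes kept. Spots marked as outliers by the scanner software were masked, which cost 34 probes. Log2 signals were averaged over the spots of a probe and scaled to the 75th percentile of gene spots. A gene was tested when its brightest probe exceeded background clearly, by the scanner software's flag, on 3 or more of the 6 arrays. Lines were compared with limma 3.58.1 in R 4.3.3 (lmFit, eBayes), with no covariate and Benjamini-Hochberg adjustment over 21503 genes. Confidence intervals cover 95% and are not adjusted for the number of genes. The number of arrays, 3 per line, limits the precision. Files were read with the data.table package, version 1.17.8, and promoters and figures were handled with Python 3.11.15, pandas 2.3.3 and matplotlib 3.10.9. The test was tried on simulated data first.

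The members, roles, pathway list and markers were chosen with earlier results of these data known. Values of every array are given for members that passed, members detected in 1 line alone, those with an absolute difference of 1 or more without overlap, Stat2 and the main Irf factors, and the brightest of each role; other members shown array by array, and probes other than the brightest, were chosen after their values were seen. Same-numbered arrays deviated together across genes, at 0.293, 0.215 and 0.558, so the replicate number was treated as a pairing in an alternative fit. Crossed arrays of slide 1 did so more strongly, at 0.412 and 0.378, than its same-numbered arrays, at 0.293 and 0.215. On slide 1 these values thus show no pairing by number apart from the shared slide. Slides were read from the array identifiers. Alternatives were normexp with offset 50, quantile normalization, median scaling, other filters, the mean over probes, current gene symbols, slide or replicate as a block, slide 1 alone, unmasked outliers, the value list and leaving out each array. Testing each probe on its own, and the alternatives for the gene under an older name in the closing observations, were added after the data were seen. Probe positions are those of the array annotation, on build mm7, and probe sequences are not printed. A few genes, 1 of them a member, are counted in the totals but not reported here by name.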

Additional observations from a re-analysis of the deposited data

How the results depend on the processing

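Over all genes, 143 were higher and 116 lower in the comparison as reported. Of the 17 members tested and followed array by array under the naming rule, Adar, Irf2, Irf5 and Stat2, all with differences near 0, changed sign under some alternative, and the other 13 did not. Adar was 0.02 with normexp, 0.24 as the mean over probes and 0.14 on slide 1 alone. Irf2 was 0.12 with normexp and 0.33 on slide 1 alone, Irf5 was 0.83 with normexp and 0.12 with quantile normalization, and Stat2 was 0.18 on slide 1 alone. Normexp gave 55 genes higher and 24 lower, 1 member higher, 1 pathway gene lower and a median over members of 0.49 beside 0.34 over all genes. The pathway count lower was also 1 with median scaling, with no filter and with the mean over probes. Without a filter 91 genes were higher, and with a filter on all 6 arrays 285 were higher and 233 lower, with 5 pathway genes higher; these filters change how many genes are tested. Slide 1 alone, which has fewer arrays, gave 63 higher and 64 lower, 1 member higher and 1 pathway gene in each direction. The replicate block gave 1 gene higher and 0 lower, 0 members in either direction and 0 pathway genes in either direction in limma. With that block, 12 members were higher and 2 lower at an unadjusted p of 0.05, beside 6.61% and 6.53% of all genes. Leaving out 1 array at a time gave 0 to 93 genes higher, 0 to 131 lower, 0 to 1 members higher, 0 lower, 0 to 2 pathway genes in each direction and medians over members of 0.21 to 0.34. Over the same steps Adar ran from -0.19 to 0.14, Irf2 from -0.25 to 0.29, Irf5 from -1.03 to 0.74 and Stat2 from -0.25 to 0.18. The cause of these changes was not tested. Slide as a block and current symbols each gave 4 members higher. Signals near background limit Ifi44 in Neo to a bound and leave Oas1g and Samhd1 without a level.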

Other observations

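The gene that RefSeq now names Ifi27, a small hydrophobic protein of mitochondria and the nuclear envelope induced by type I interferon, was on the array under an older name, D12Ertd647e, and so fell outside the rule for members. It was singled out after its values were seen. It measured -1.56, -1.55 and -1.66 in Neo and -0.31, -0.35 and -0.54 in MR 4-25. The arrays of each line were close together and the lines were far apart. It was 2.29-fold higher in MR 4-25, with a log2 difference of 1.19, a standard error of 0.15 and a limma adjusted p of 0.0361, and the difference was 1.23 on slide 1 and 1.12 on slide 2. The adjusted p was 0.154 with a replicate block, 0.0689 on slide 1 alone and 0.114 with normexp. Without Neo 1, 2 or 3 it was 0.215, 0.205 and 0.177, and without MR 4-25 1, 2 or 3 it was 0.176, 0.155 and 0.0366. Naming the genes by current symbols therefore gave 4 members higher.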
